A study of Arabidopsis thaliana with 27 samples.

Results

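Arabidopsis thaliana Col-0 seedlings raised on 125 mM NaCl were compared with seedlings raised on 250 mM sorbitol, the pair of iso-osmolar media with the strongest dose in the series. The members were the 3 arrays titled for 125 mM NaCl and the 3 titled for 250 mM sorbitol, 6 of 27 arrays in all, with every gene on the array. Of 25383 genes on the array, 21508 entered the test because some group had all 3 of its arrays well above background, and the other 3875 did not.

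The series held 9 groups of 3 one-colour (Cy3) Agilent arrays, namely untreated seedlings, NaCl at 50, 75, 100 and 125 mM, and sorbitol at 100, 150, 200 and 250 mM. All groups were wild type, germinated and kept for 2 weeks on Arabidopsis thaliana salt (ATS) agar, a minimal mineral medium, so the supplement was present from germination and every group carried the same medium. RNA came from whole seedlings with root and shoot, which means that each array averages all tissues, and a smaller share of a cell type cannot be told apart from less RNA per cell. The study calls the 3 samples of a group biological repeats without saying whether they were separate cultures, so the p-values below measure the spread between these samples, which may be partly technical.

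Sodium chloride lowers the water potential of the medium and also brings Na+ and Cl- into the plant, whereas sorbitol, a sugar alcohol, lowers water potential without adding ions. Plants answer water deficit largely through abscisic acid (ABA), which switches on dehydration proteins and solute synthesis, and they handle Na+ by exporting it from cells, storing it in vacuoles and keeping K+ inside. The question addressed by the pair is which transcripts differ when the osmotic strength is nominally the same and the ions are present or absent.

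Transcript levels differed widely between the media. At an adjusted p under 0.01 (limma on log2 quantile-normalized signals, Benjamini-Hochberg over all genes tested), 14662 of 21508 genes were called, or 68.2%, with 5750 higher on NaCl (26.7%) and 8912 lower (41.4%). Most differences were small, with a median absolute log2 difference of 0.31 and a median signed difference of -0.09. At least 2-fold differences were called for 2427 genes (11.3%), of which 1359 were higher (6.32%) and 1068 lower (4.97%). At 4-fold and above the split was wider, with 521 genes higher on NaCl and 198 lower. The 3 arrays of one group all lay above the 3 of the other for 17759 genes (82.6%). Scaling each array to its 75th percentile in place of quantile normalization gave 6120 genes higher and 8423 lower.

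**Figure D1:**
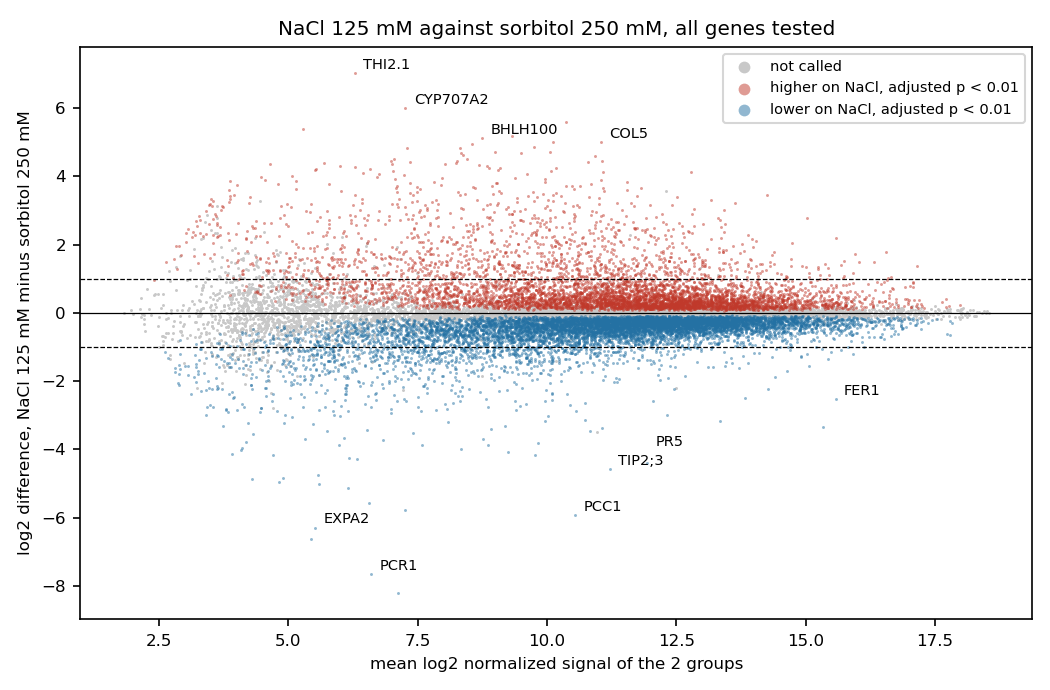
Each point is 1 of 21508 genes, with the mean log2 normalized signal of both groups on the horizontal axis and the log2 difference, NaCl 125 mM minus sorbitol 250 mM, on the vertical axis. Red and blue points are the 5750 genes higher and the 8912 genes lower on NaCl, grey points were not called, and the dashed lines mark a 2-fold difference.

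The arrays of each group were close to one another, but the media were not spread evenly over slides. All 3 sorbitol 250 mM arrays lay on 1 slide that held no other group. The NaCl 125 mM arrays lay on 2 slides shared with lower sorbitol doses, so slide and group cannot be told apart in this pair. The control arrays lay on slides that held neither of these media. Every comparison with the control below therefore also cannot be told apart from slide. Replicates on different slides differed by a root mean square of 0.273 and 0.278 on the log2 scale for NaCl 125 mM, against 0.259 for its replicates on 1 slide, and those of sorbitol 100 mM by up to 0.312 against 0.246. Over all arrays the correlation estimated between arrays of 1 slide was 0.516. The 2 group means differed by 0.787, a value over means of 3 arrays and not over single arrays. No group had arrays both on the sorbitol 250 mM slide and on another, so the offset of that slide was not measured. For the genes described in most detail, the difference between NaCl 125 mM and sorbitol 100 mM fitted within their shared slides is therefore given as well and is called the slide-matched difference. It compares NaCl with a lower sorbitol dose and carries no call.

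Markers of root and shoot were present in every group. All 19 shoot markers (photosynthesis genes) and all 13 root markers passed the background flag on every array of the control, NaCl 125 mM and sorbitol 250 mM. Of the shoot markers 1 was called higher on NaCl, 3 lower and 15 not called, with a median log2 difference of 0.02. This depended on the scaling, since 75th percentile scaling gave 1 higher and 11 lower with a median of -0.34, and the mean of all probes gave 5 higher and 7 lower. Of the root markers 1 was higher, 11 lower and 1 not called, with a median of -0.63, against -0.09 over all genes. Over all genes 26.7% were called higher and 41.4% lower, and every list count below is to be read beside these shares. The summed root marker signal was 17.43 to 17.53 (log2) on NaCl, 17.57 to 17.63 on sorbitol and 17.47 to 17.50 in the control, but PYK10 is far brighter than the other root markers and dominates this sum. Relative to the control the median over the root markers was -1.18 on NaCl and -0.46 on sorbitol. Beside every group of root-expressed genes below, the lower root markers on NaCl are a measured fact, and their part in the result was not tested.

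Among genes higher on NaCl and measured on all arrays of both groups, the largest difference was in ChlAKR (AT2G37770), a chloroplast aldo-keto reductase that detoxifies reactive carbonyls. Its log2 signal was 13.16, 13.22 and 13.12 on NaCl and 7.56, 7.62 and 7.49 on sorbitol, with a control mean of 9.36. All NaCl arrays were above all sorbitol arrays by a wide margin, a 48.8-fold difference (log2 5.61, SE 0.064, adjusted p 2.1e-24), and the slide-matched difference was 3.75.

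COL5 (AT5G57660), a CONSTANS-like zinc finger factor, read 13.54, 13.53 and 13.57 on NaCl and 8.53, 8.55 and 8.53 on sorbitol (log2 5.01, SE 0.029). KIN10 (AT3G01090), a catalytic subunit of the energy-sensing kinase SnRK1, read 12.40, 12.41 and 12.44 on NaCl and 7.57, 7.86 and 7.65 on sorbitol (log2 4.72, SE 0.059). Neither gene's groups overlapped, and the control means of 11.78 and 10.24 lay between the media. Slide-matched differences were 2.13 for COL5 and 2.36 for KIN10.

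Also among the 12 largest were BHLH100 and BTS, both of the iron response described further on, MLO8 (a member of the MLO membrane protein family, log2 4.86), PAH2 (a phosphatidate phosphatase, 4.85), and JAL23 (a jacalin-related lectin, 4.68). AT3G56480 (5.19), AT1G54020 (4.94), AT4G21720 (4.82) and AT1G47400 (4.72) are given by locus only. Size depended on the probe for some of these, since a second probe of the same gene read 2.42 for AT3G56480, 1.38 for AT1G54020, 1.56 for BTS and 1.52 for JAL23. All probes of the 12 genes pointed the same way.

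In the opposite direction the largest difference was in PCC1 (AT3G22231), named as a pathogen and circadian controlled gene. It read 7.44, 7.71 and 7.62 on NaCl and 13.50, 13.51 and 13.53 on sorbitol, with a control mean of 11.44. The groups stood 60.8-fold apart (log2 -5.93, SE 0.092, adjusted p 3.2e-22), and the slide-matched difference was -4.11.

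TIP2;3 (AT5G47450), a tonoplast aquaporin, read 8.92, 8.88 and 8.99 on NaCl and 13.53, 13.52 and 13.47 on sorbitol, against 12.13 in the control (log2 -4.58, SE 0.041). PR5 (AT1G75040), a thaumatin-like defence protein, read 9.77, 9.79 and 9.68 on NaCl and 14.12, 14.15 and 14.16 on sorbitol, against 11.67 in the control (log2 -4.40, SE 0.031). NaCl arrays were the low ones for both, with no overlap. Within slides TIP2;3 kept its size at -5.16, whereas PR5 was at -0.77 when set against the lower sorbitol dose.

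Other genes at the low end were PXMT1 (a methyltransferase, log2 -4.16), BG3 (a beta-1,3-glucanase, -4.06, with -1.11 on its other probe), WRKY30 (a WRKY transcription factor, -3.99), UMAMIT33 (of the amino acid exporter family UMAMIT, -3.81) and ABCG40 (an ABC transporter that imports ABA, -3.53). AT1G26380 (-3.88), AT5G59670 (-3.86), AT1G26410 (-3.73) and AT1G13470 (-3.69) are named by locus. Slide-matched values were of the other sign for BG3 (0.49) and AT1G13470 (0.07), and were between -0.32 and -0.80 for PXMT1, WRKY30, AT1G26410 and ABCG40. For UMAMIT33 the sorbitol arrays stood apart at 11.75, 11.74 and 11.69, with NaCl at 7.90, 7.95 and 7.91 and the control at 7.82. AT1G26380 had the reverse arrangement, with sorbitol at 10.81, 10.77 and 10.83, the control at 11.11 and NaCl at 6.94, 6.96 and 6.87.

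**Figure D2:**
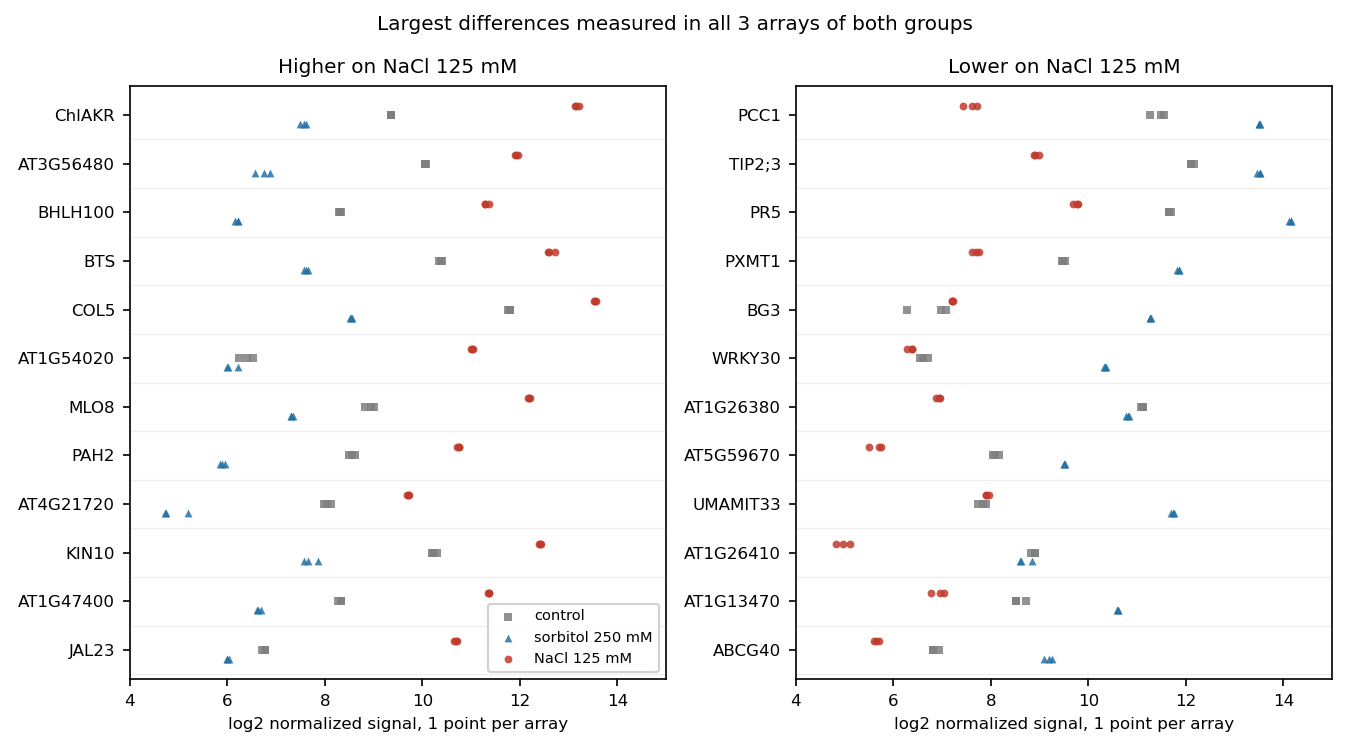
Log2 normalized signal of the 12 genes with the largest difference in each direction, 1 point per array, for control (squares), sorbitol 250 mM (triangles) and NaCl 125 mM (circles). In every row the NaCl and sorbitol arrays are separate, and in the left panel the control arrays lie between them, next to the sorbitol arrays for AT1G54020.

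Genes that were not well above background on any array of one medium have only a bound, computed against the lowest signal well above background on those arrays or the gene's own signal, whichever was higher. On this basis CYP707A2 (AT2G29090), an ABA 8'-hydroxylase that breaks down ABA, was at least 62.0-fold higher on NaCl, and THI2.1 (AT1G72260), a jasmonate-inducible thionin, at least 45.4-fold. CYP707A2 read 10.37, 10.29 and 10.16 on NaCl and had a control mean of 6.66. THI2.1 read 9.82, 9.79 and 9.81 on NaCl and was at 2.03 in the control. 4CL8, annotated as a 4-coumarate-CoA ligase family member, was at least 17.1-fold higher and AT4G08555 at least 16.5-fold.

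The bounds in the other direction were larger for the leading genes. AT4G01390 was at least 159-fold lower on NaCl, PCR1 (AT1G14880, named for plant cadmium resistance) at least 92.3-fold, AT3G12910 at least 28.8-fold and EXPA2 (AT5G05290, an expansin that loosens cell walls) at least 27.1-fold. EXPA2 read 8.63, 8.73 and 8.64 on sorbitol and was at 2.08 in the control and at 2.48, 2.68 and 1.95 on NaCl, so the sorbitol arrays alone were bright. In all, 202 genes were below background on the sorbitol arrays only and 85 on the NaCl arrays only.

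Genes of Na+, K+ and proton transport were divided between the directions. Of 29 members tested, 10 were higher on NaCl, 11 lower and 8 not called, with a median of -0.04 against -0.09 over all genes. The one member past 2-fold was CHX17 (AT4G23700), a cation/H+ exchanger of root cells linked to K+ homeostasis. It read 9.16, 9.22 and 9.17 on NaCl, 12.27, 12.35 and 12.32 on sorbitol and 9.38 in the control, so the sorbitol arrays were high and did not overlap the rest (log2 -3.13, SE 0.037, slide-matched -1.90).

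Higher on NaCl were CIPK9 (a kinase of K+ deficiency signalling, log2 0.99) and CAX1 (a vacuolar Ca2+/H+ exchanger, 0.74). Lower were the K+ channels KAT2 (-0.87), AKT2 (-0.71), SKOR (-0.64), GORK (-0.41) and AKT1 (-0.38). The plasma membrane Na+/H+ antiporter SOS1, which exports Na+, read 10.96, 10.94 and 10.92 on NaCl and 10.98, 10.95 and 10.99 on sorbitol and was not called (-0.04, adjusted p 0.61), whereas SOS2 (-0.36) and SOS3 (-0.21), the kinase and calcium sensor that activate it, were lower.

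The vacuolar antiporters NHX1 (-0.04) and NHX3 (0.19, but 0.35 and called with 75th percentile scaling) were not called. NHX2 of the same family was called higher on NaCl by a small difference. It was between 0.15 and 0.20 over 15 alternative settings, and 8 of them lost the call. HKT1, which retrieves Na+ from the xylem, was not called (-0.16, adjusted p 0.029). HKT1 was at 9.45 in the control, at 8.04, 8.12 and 8.03 on NaCl and at 8.17, 8.26 and 8.23 on sorbitol. HAK5, the high-affinity K+ transporter, was called with a small difference of 0.21, but both media were far above the control mean of 6.70, at 11.50, 11.48 and 11.53 on NaCl and 11.30, 11.26 and 11.32 on sorbitol.

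For chloride and nitrate transport 8 of 17 genes were higher on NaCl, 6 lower and 3 not called, with a median of 0.05. NPF2.4 (AT3G45700), which loads Cl- into the root xylem, read 7.48, 7.50 and 7.47 on NaCl, 10.19, 10.22 and 10.28 on sorbitol and 10.69 in the control. NaCl arrays were the low ones without overlap (log2 -2.75, SE 0.048, slide-matched -3.20). Of the vacuolar anion transporters CLC-C was higher on NaCl (1.60) and CLC-A lower (-0.62). The xylem nitrate transporters NRT1.8, which unloads nitrate, and NRT1.5, which loads it, differed in opposite directions, at 1.56 and -0.83.

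Iron was the list with the largest median. Of 18 genes for iron uptake, signalling and storage, 13 were higher on NaCl, 4 were lower and 1 was not called, with a median log2 difference of 1.67 against -0.09 over all genes, and 11 were at least 2-fold higher. The median was 1.47 with 1 member, not well above background on sorbitol, set to its bound. It was 0.94 after normexp background correction. The slide-matched median of the list was 0.40, against -0.03 over all genes. Against the control the list median was 0.80 on NaCl and -0.62 on sorbitol, both against the same 3 control arrays.

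Of the top 5 members 4 were transcription factors of the iron deficiency response, and the other was BTS. BHLH100 (AT2G41240), of the Ib group of bHLH factors, read 11.29, 11.37 and 11.29 on NaCl, 6.21, 6.22 and 6.16 on sorbitol and 8.31 in the control (log2 5.12, SE 0.109, slide-matched 3.65). BHLH38 was at 4.45, BHLH39 at 3.32 and BHLH101 at 2.79, with slide-matched differences of 1.26, 0.48 and 0.62. BHLH38 and BHLH39 are close copies in tandem, so their probes may share signal. FIT, the partner through which these factors act in the root, was not called (12.49, 12.53 and 12.47 on NaCl and 12.46, 12.47 and 12.45 on sorbitol).

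BTS (AT3G18290), an E3 ligase that restrains the iron deficiency response, read 12.60, 12.57 and 12.72 on NaCl and 7.66, 7.56 and 7.61 on sorbitol (log2 5.02). Higher too were NAS4, a nicotianamine synthase for metal chelation (2.68), F6'H1, which makes iron-mobilizing coumarins (2.05), the root Fe(II) transporter IRT1 (1.75) and the phloem transporter OPT3 (1.58). IRT1 read 11.50, 11.59 and 11.81 on NaCl, 9.80, 9.89 and 9.94 on sorbitol and 8.29 in the control, and its slide-matched difference was 0.32. The ferric reductase FRO2 differed by 0.13 only.

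Ferritins, which store iron in plastids and mitochondria, went the other way. FER1 (AT5G01600) read 14.32, 14.30 and 14.32 on NaCl, 16.88, 16.82 and 16.85 on sorbitol and 14.68 in the control (log2 -2.53, SE 0.041). The sorbitol arrays lay further from the control arrays than the NaCl arrays did, and the 3 groups shared no slide. FER3 (-1.58) and FER4 (-0.94) were lower on NaCl as well, and slide-matched differences of the 3 ferritins were -0.40, -0.30 and -0.18. IRT2 was lower at -0.98.

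**Figure D3:**
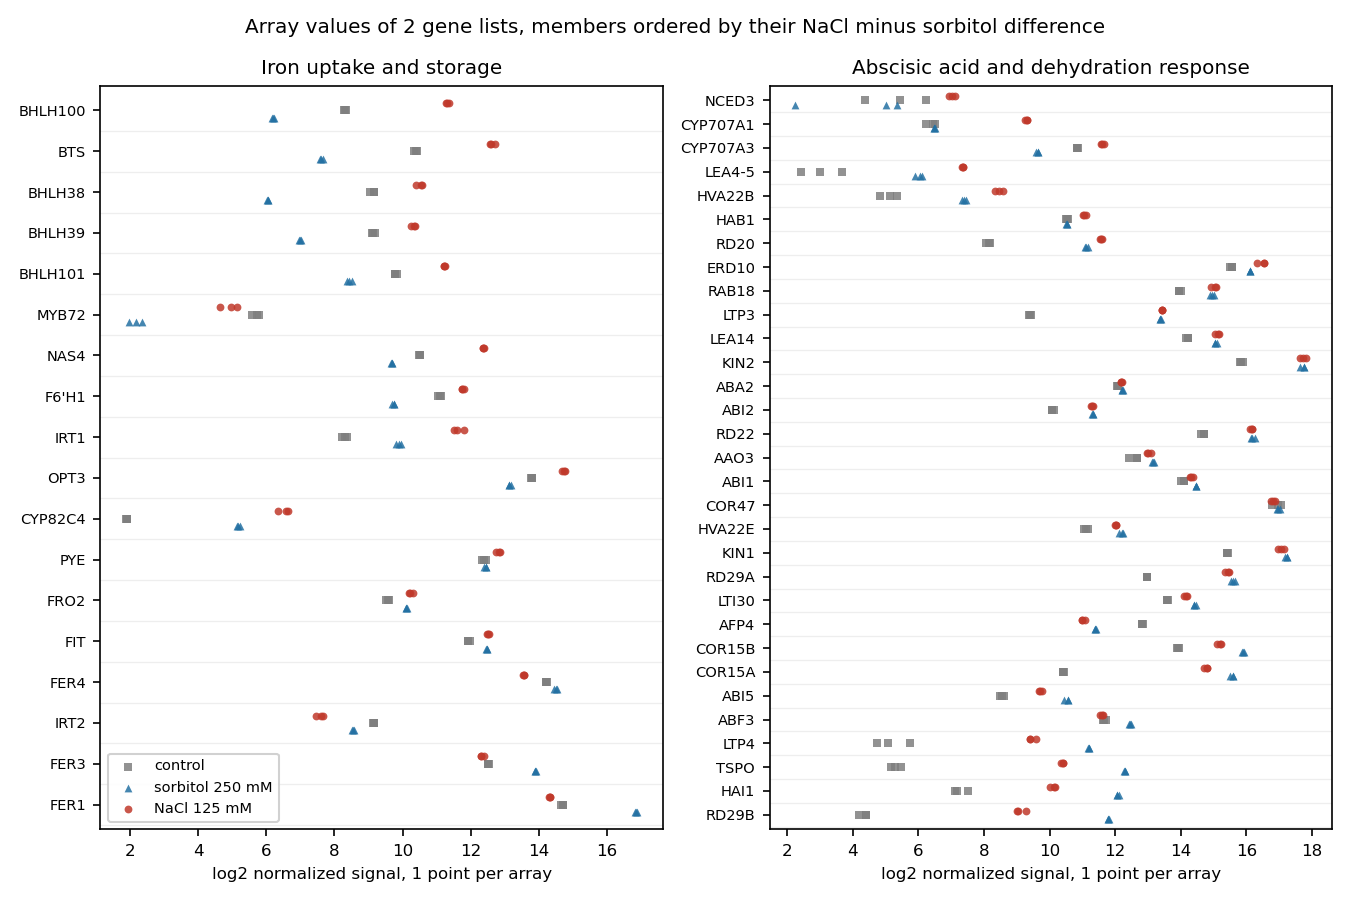
Log2 normalized signal of the members of the iron list (left) and of the ABA and dehydration list (right), 1 point per array, for control (squares), sorbitol 250 mM (triangles) and NaCl 125 mM (circles), ordered by the NaCl minus sorbitol difference. In the iron list NaCl and sorbitol arrays lie on opposite sides of the control for BHLH100, BTS, BHLH38, BHLH39, BHLH101, NAS4 and F6'H1, and in the ABA list both media lie above the control for most members.

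Sulfate assimilation genes were higher on NaCl or not called. Of 9 genes, 7 were higher, none lower and 2 not called, with a median of 0.60. SDI1, a repressor of glucosinolate synthesis that marks low sulfur, read 11.86, 11.84 and 11.80 on NaCl and 10.23, 10.22 and 10.13 on sorbitol (log2 1.63, slide-matched 2.13). LSU2 (1.26) and LSU1 (1.02), small proteins made under low sulfur, and the vacuolar sulfate exporter SULTR4;2 (1.09) were higher, while the reductase gene APR1 (0.04) and the root uptake transporter SULTR1;1 (0.05) were not called.

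The ABA and dehydration list had called members in both directions, with 8 of 31 higher on NaCl, 13 lower and 10 not called, and a median of -0.13. These shares are close to the 26.7% higher and 41.4% lower over all genes. Relative to the same control arrays the list median was 1.25 on NaCl and 1.22 on sorbitol. RD29B (AT5G52300), a classic ABA-induced gene, read 9.00, 9.05 and 9.27 on NaCl, 11.78, 11.77 and 11.82 on sorbitol and 4.33 in the control (log2 -2.69, SE 0.092, slide-matched -1.01). Both media stood far above the control and sorbitol the higher. HAI1, a phosphatase that limits ABA signalling (-1.96), TSPO, an ABA-induced membrane protein (-1.90), LTP4 (a lipid transfer protein, -1.71), ABF3 (a bZIP factor of ABA signalling, -0.86) and the cold-regulated chloroplast protein COR15A (-0.78) were lower on NaCl too.

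Of the 4 ABA 8'-hydroxylases of ABA breakdown, 3 were higher on NaCl, CYP707A2 given above among them, and CYP707A4 was not called (-0.71, adjusted p 0.48). CYP707A1 read 9.30, 9.26 and 9.32 on NaCl, 6.48, 6.47 and 6.52 on sorbitol and 6.40 in the control (log2 2.80, SE 0.058, slide-matched 2.18). CYP707A3 read 11.65, 11.59 and 11.58 on NaCl and 9.65, 9.64 and 9.58 on sorbitol, with the control at 10.85 (1.99, slide-matched -0.11). The rate-limiting ABA synthesis gene NCED3 was called at 2.82 with an SE of 0.760, and its sorbitol arrays were scattered, at 5.35, 5.01 and 2.25. Without sorbitol replicate 3 it was at 1.85 and no longer called (adjusted p 0.026). The dehydrin RAB18 (0.06) and the cold-induced KIN2 (0.03) were not called.

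Among 19 genes of compatible solutes, which balance osmotic pressure in the cytosol, 3 were higher on NaCl, 11 lower and 5 not called, with a median of -0.22. Over all genes the shares were 26.7% higher and 41.4% lower. The slide-matched median of this list was 0.13, of the other sign. PRODH1, which breaks down proline, read 13.19, 13.19 and 13.06 on NaCl, 15.40, 15.39 and 15.38 on sorbitol and 15.63 in the control (log2 -2.24, slide-matched -2.19). P5CS1, the first enzyme of proline synthesis, was lower on NaCl than on sorbitol (-0.66) though both media exceeded the control mean of 11.32, at 13.31, 13.39 and 13.39 and at 14.05, 14.00 and 14.02. The galactinol synthases GOLS3 (2.12) and GOLS2 (-1.03) went opposite ways. Of genes for polyol transport and oxidation, which handle sorbitol itself, 3 of 5 were tested, with SDH, sorbitol dehydrogenase (-0.30), and the transporter PMT6 (-0.34) called lower on NaCl and PMT5 not called (-0.08).

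Aquaporins numbered 21, with 6 higher on NaCl, 8 lower and 7 not called, and a median of 0.02. With 75th percentile scaling 2 were higher and 9 lower (median -0.09). Next to TIP2;3 the largest differences were in PIP2;4 (AT5G60660), a plasma membrane aquaporin, which read 11.14, 11.16 and 11.28 on NaCl, 13.15, 13.14 and 13.22 on sorbitol and 13.20 in the control (log2 -1.98, SE 0.039), and in the tonoplast TIP2;2 (-1.55). Sorbitol arrays matched the control level for PIP2;4 and the NaCl arrays were low, with a slide-matched difference of -2.15. TIP2;1 was higher on NaCl (0.91), although its slide-matched difference was -0.01.

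Auxin synthesis genes were split 7 higher and 7 lower of 18 tested, with a median of 0.13. All 3 tandem nitrilases, which turn indole-3-acetonitrile into auxin, were higher on NaCl. NIT2 (AT3G44300) read 13.38, 13.33 and 13.35 on NaCl, 11.37, 11.37 and 11.39 on sorbitol and 10.35 in the control (log2 1.98, SE 0.043, slide-matched 2.45). NIT1 was at 1.35 and NIT3 at 1.11, and cross-hybridization between the 3 close copies was not tested. The aminotransferase TAA1 (-0.94) and the flavin monooxygenases YUC2 (-0.80) and YUC4 (-0.55), which act in the indole-3-pyruvate route, were lower on NaCl, as was the aldehyde oxidase AAO1 (-0.62).

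SAUR genes, small growth-related genes that auxin induces early, were mostly higher on NaCl. Of 80 genes found by name, 74 were on the array and 65 were tested, with 43 higher, 7 lower and 15 not called, a median of 0.73 (0.36 after normexp background correction) and 23 at least 2-fold higher. AT4G38860 read 9.22, 9.15 and 9.40 on NaCl, 5.16, 5.61 and 5.59 on sorbitol and 6.74 in the control (log2 3.81, SE 0.136, slide-matched 3.05). AT2G16580 (3.51), SAUR9 (3.02), SAUR19 (1.88) and SAUR23 (1.87) were higher as well. AT3G53250, at least 7.43-fold lower on NaCl, led the 7 in the other direction. SAUR19, SAUR22 and SAUR23 belong to a tandem group of near-identical genes, so their values are not independent.

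Other auxin response and transport genes did not share this direction, with 9 of 27 higher on NaCl, 13 lower and 5 not called and a median of -0.21. The auxin importer AUX1 was higher (2.07), with sorbitol at 10.90, 10.94 and 10.93, NaCl at 12.97, 12.96 and 13.05 and the control at 12.98. The repressor IAA6 was also higher (1.89). GH3.2, which conjugates auxin to amino acids (-1.48), IAA30 (-1.33) and the exporter PIN2 (-0.82) were lower.

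Jasmonate and defence genes were called in both directions. Of 21 genes, 12 were higher on NaCl, 8 lower and 1 not called, with a median of 0.50, which was 0.22 after normexp background correction. Higher on NaCl were the jasmonate repressor JAZ10 at 11.46, 11.56 and 11.52 on NaCl, 9.36, 9.34 and 9.33 on sorbitol and 8.42 in the control (log2 2.17, slide-matched 2.85), JAZ5 at 1.8, the vegetative storage proteins VSP2 and VSP1 at 1.52 and 1.51, and the lipoxygenase LOX2 at 0.76. VSP1 and VSP2 are close copies. Other jasmonate genes were lower, namely the synthesis genes AOS (-0.29) and AOC1 (-0.38, with its 2 probes of opposite sign) and the jasmonate-responsive CORI3 (-0.23).

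Lower on NaCl too, beside PR5, was PR2, a salicylate-induced glucanase, which read 10.41, 10.41 and 10.24 on NaCl, 12.33, 12.41 and 12.38 on sorbitol and 8.38 in the control (log2 -2.02). Its slide-matched difference was 1.38, so NaCl 125 mM was above sorbitol 100 mM. PR1 (-2.44) was near background on NaCl at 4.87, 2.81 and 2.35, and its call was lost without NaCl replicate 2 (-2.18), NaCl replicate 3 (-1.94) or sorbitol replicate 1 (-2.24). The jasmonate-responsive defensin PDF1.2 was high on sorbitol at 9.40, 9.31 and 9.32 and in the control at 10.76, and uneven on NaCl at 2.39, 6.16 and 2.77, with 1 NaCl array well above background.

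The late anthocyanin genes DFR, TT19 and LDOX were higher on NaCl, whereas the flavonoid synthesis genes F3H (-0.43) and FLS1 (-0.25) were lower. Of 16 flavonoid genes, 10 were higher, 4 lower and 2 not called, with a median of 0.26, and relative to the same control arrays the list median was 3.5 on NaCl and 3.13 on sorbitol. DFR, dihydroflavonol reductase, read 15.10, 15.13 and 15.16 on NaCl, 14.13, 14.11 and 14.12 on sorbitol and 9.35 in the control (log2 1.01). TT19, a carrier needed for anthocyanin storage (1.37), and LDOX, anthocyanidin synthase (0.90), were higher, and the factor PAP2 was lower (-1.40). Glucosinolate genes were lower in 11 of 18 cases and higher in 5, with a median of -0.25. CYP79F1, the entry enzyme for methionine-derived glucosinolates, was at -1.04 and the chain elongation enzyme MAM1 at -0.71.

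**Figure D4:**
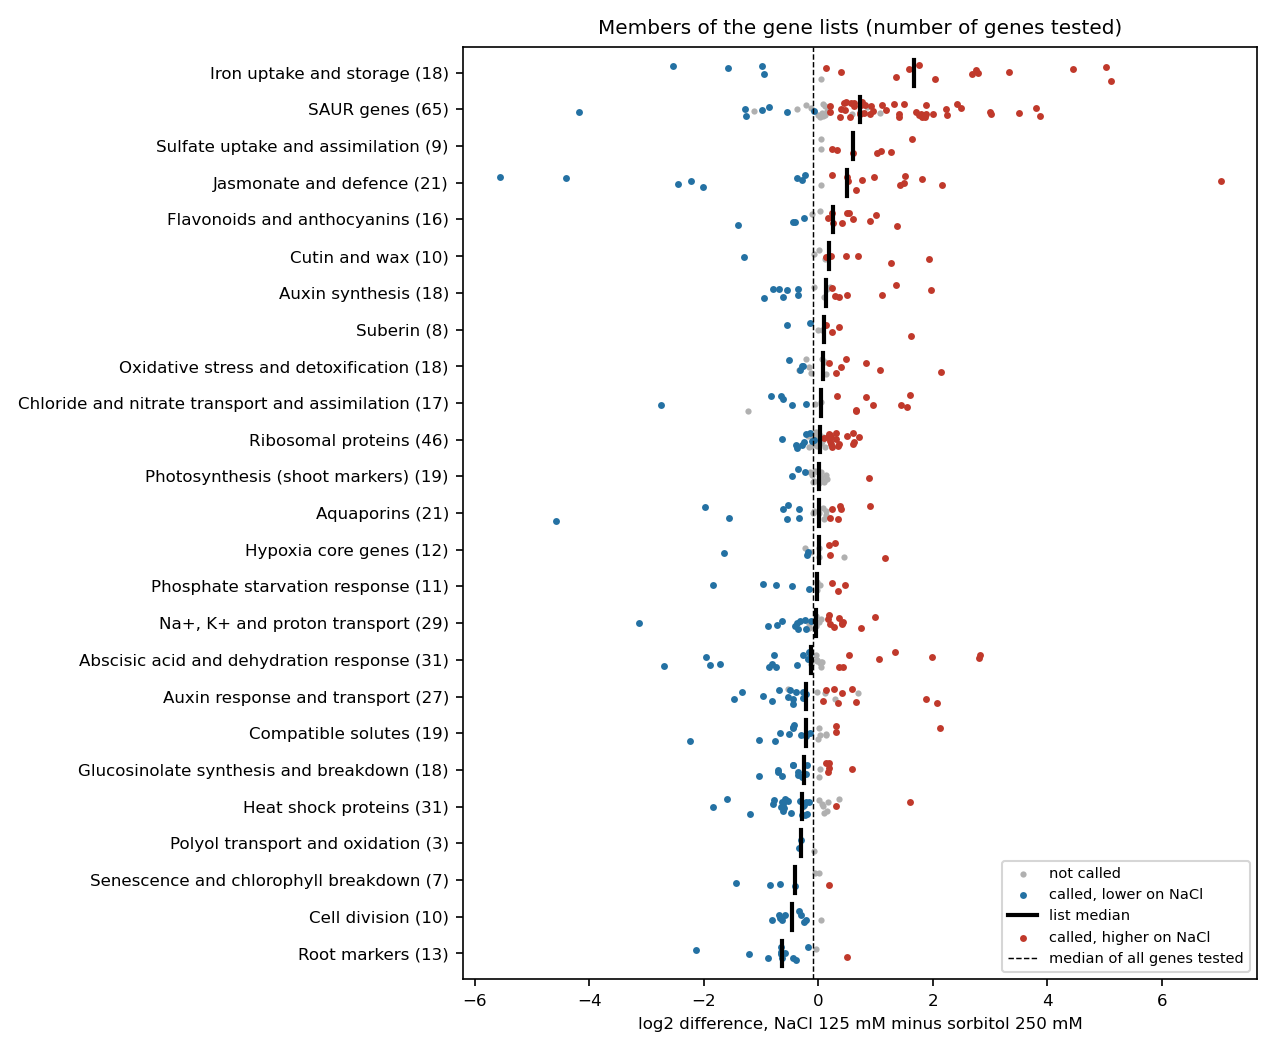
Log2 difference, NaCl 125 mM minus sorbitol 250 mM, of each tested member of 25 gene lists, 1 point per gene, with red and blue for genes called higher and lower on NaCl and grey for genes not called. Black bars are list medians, from 1.67 for iron to -0.63 for root markers, and the dashed line is the median of -0.09 over all genes tested.

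Of 10 cutin and wax genes 6 were higher on NaCl and 1 lower, with a median of 0.18, led by the cutin acyltransferase GPAT4 (log2 1.94, slide-matched 0.70) and with the wax reductase CER4 lower (-1.29). Of 8 suberin genes 4 were higher and 2 lower, with a median of 0.10, and ASFT, the feruloyl transferase of suberin, was at 1.62 with a slide-matched difference of 0.15.

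Root markers included CASP5 (AT5G15290), of the Casparian strip scaffold, at 5.30, 5.32 and 5.31 on NaCl, 7.44, 7.46 and 7.46 on sorbitol and 8.80 in the control (log2 -2.14, SE 0.074, slide-matched -3.88). NaCl arrays were lowest and the control highest. COBL9, needed for root hairs, was at -1.22 and the hair expansin EXPA18 at -0.89. The endodermis factor SCR was higher on NaCl (0.51), though its 2 probes differed in sign and their mean (0.23) was not called, and PYK10, the abundant root beta-glucosidase, was not called (-0.04).

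Cell division genes were lower on NaCl in 9 of 10 cases, with a median of -0.46 and no member past 2-fold. CDKB2;1, a mitotic kinase, read 11.19, 11.20 and 11.25 on NaCl, 12.01, 12.02 and 12.01 on sorbitol and 11.87 in the control (log2 -0.80, slide-matched -0.49). CYCB1;1, a mitotic cyclin, was at -0.69. Heat shock proteins, which keep other proteins folded, were lower in 22 of 31 cases and higher in 2, with a median of -0.29. Over all genes 41.4% were lower and 26.7% higher. The slide-matched median of this list was of the other sign, at 0.12. At the iso-osmolar pairs with 50 and 75 mM NaCl the list median was 0.15 and 0.004. HSP101, the disaggregase, was at -1.19 with NaCl at 9.39, 9.46 and 9.55, sorbitol at 10.66, 10.66 and 10.67 and the control at 10.40. HSPRO2, the highest member at 1.60, was taken up by its name and is not a chaperone.

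Ribosomal protein genes, 46 tested, were split between 17 higher, 9 lower and 20 not called, none past 2-fold, with a median of 0.03. With 75th percentile scaling the balance turned, to 8 higher and 13 lower (median -0.07). The name search also took in a few genes for organelle ribosomes. Of 18 genes of oxidative stress 7 were higher and 4 lower, with a median of 0.09, against 6 and 6 with a median of -0.11 after 75th percentile scaling, and the kinase OXI1, which responds to peroxide, was at 2.14. Of 12 hypoxia genes 4 were higher and 3 lower, with a median of 0.01, the haemoglobin HB1 at 1.16 and the regulator HRA1 at -1.64. Phosphate starvation genes were 3 higher and 5 lower of 11, with a median of -0.03. Senescence genes were 1 higher and 4 lower of 7, with a median of -0.40 and SAG13 at -1.44.

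The difference between the media was then set against that of the next lower pair, NaCl 100 mM and sorbitol 200 mM, by testing the change itself. The NaCl minus sorbitol difference had changed for 8853 of 21508 genes (41.2%), in favour of NaCl for 3249 (15.1%) and in favour of sorbitol for 5604 (26.1%). By at least 2-fold it changed for 1179 genes, 924 in favour of NaCl and 255 in favour of sorbitol. In the lower pair too, NaCl and sorbitol shared no slide, so slide and group cannot be told apart in either pair. The part of slides in the change was not tested apart from the slide block given in the closing section.

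The leading genes for a gain were AT3G56480 (difference 0.36 at the lower pair and 5.19 at the upper, change 4.83), AT4G21720 (0.45 and 4.82, change 4.37) and KIN10 (0.66 and 4.72, change 4.06). COL5 (1.62 at the lower pair, change 3.39), BTS (1.72, change 3.29) and CYP707A1 (-0.10, change 2.90) gained too. At the other end were PCC1 (-2.15 and -5.93, change -3.78), AIR1, an auxin-induced root gene (2.05 and -1.46, change -3.51), and TAT3, a jasmonate-responsive tyrosine aminotransferase (2.95 and -0.42, change -3.37). AIR1 and TAT3 were thus higher on NaCl at the lower pair and lower at the upper pair.

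Iron genes did not all follow this pattern. The change was not called for BHLH100 (5.34 at the lower pair, change -0.23, adjusted p 0.18), FER3 (-1.48, change -0.09) and FER4 (-0.92, change -0.02), and it was small for FER1 (-2.33, change -0.20). Over the 4 iso-osmolar pairs, from the weakest to the strongest, the median difference of the iron list was -0.10, 0.96, 1.70 and 1.67. That of the SAUR list was 0.38, 0.40, 0.61 and 0.73, of the ABA list -0.69, -0.46, -0.32 and -0.13, and of cell division genes 0.24, 0.10, -0.24 and -0.46. Over all genes the medians were 0.04, 0.00, -0.02 and -0.09. The pairs share no arrays, NaCl and sorbitol share no slide in any of them, and no test was made over the 4 pairs.

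**Figure D5:**
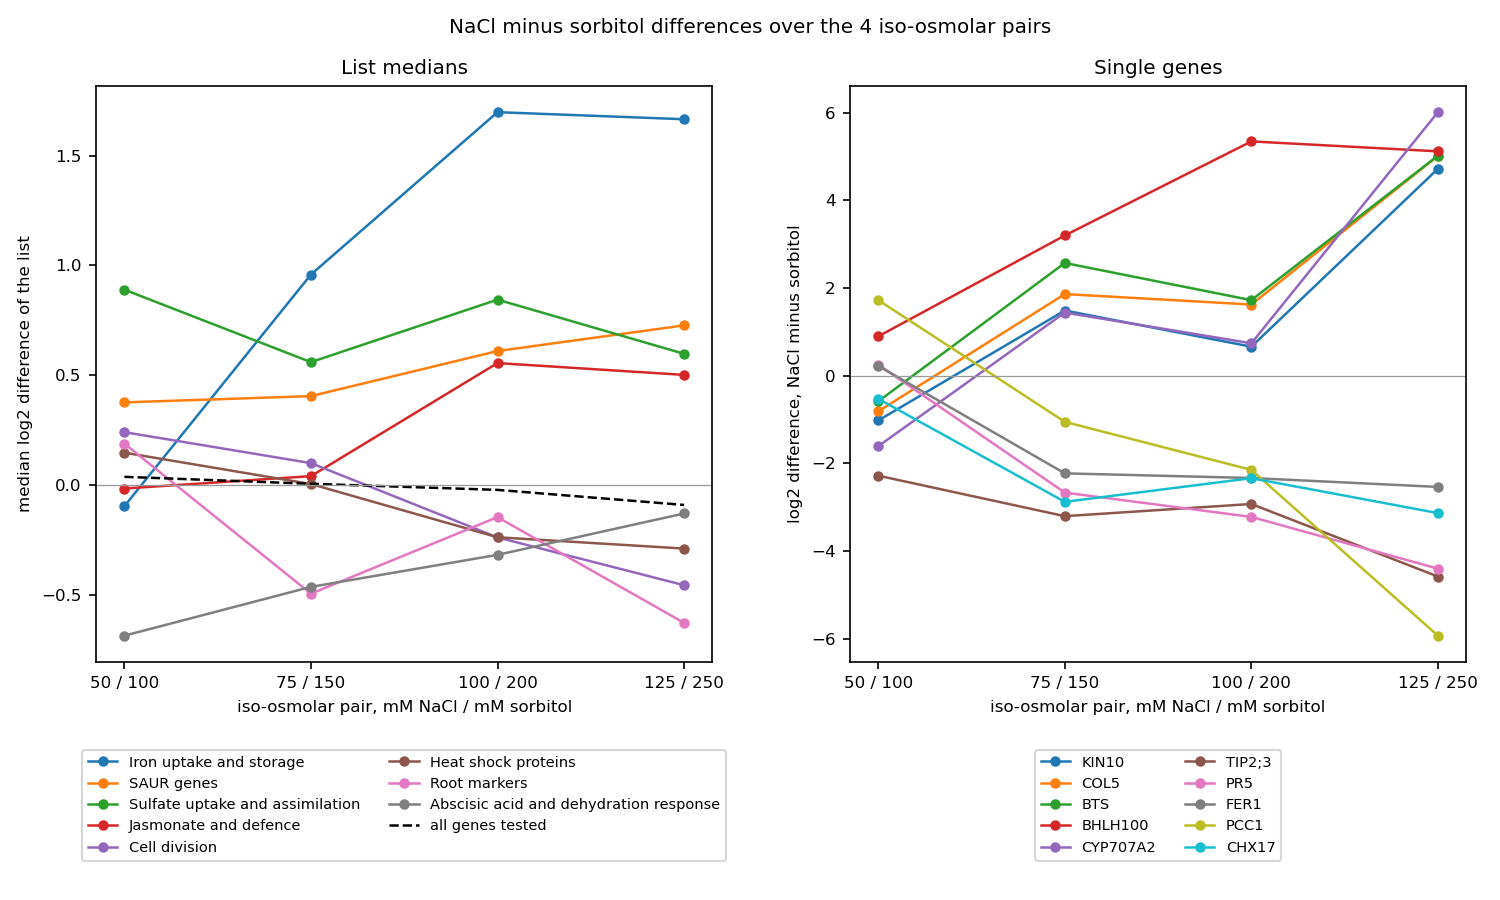
Log2 differences, NaCl minus sorbitol, over the 4 iso-osmolar pairs (horizontal axis, mM NaCl and mM sorbitol), as medians of 8 gene lists and of all genes tested (left) and for 10 single genes (right). The iron list median goes from -0.10 to 1.67 and the ABA list median from -0.69 to -0.13, and KIN10, COL5, BTS and CYP707A2 are below 0 at the weakest pair and highest at the strongest.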

How the data were processed

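The scanner files of 27 one-colour Agilent 4x44k Arabidopsis arrays hold 43803 non-control spots each with the processed signal intensity per the file headers, made by the submitters with Agilent Feature Extraction 10.7, whose background subtraction precedes deposition. The deposited table of the whole series holds intensities on a linear scale, and 100% of its values lay within 0.1% of the quantile-normalized signals computed here. Intensities were quantile-normalized and put on the log2 scale, 530 outlier spots (0.0448%) were masked, and genes were named through RefSeq locus tags (34369 of 36226 spots with an accession), each by its brightest probe. Coordinates and promoter motifs were not used here.

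Differences were tested with limma 3.58.1 in R 4.3.3 (lmFit and eBayes, 9 group means over all 27 arrays, two-sided, Benjamini-Hochberg, call at an adjusted p under 0.01). Data were simulated over 21508 genes with independent noise on each array, 100 changed genes at each size and no slide effect. In these data 79% of changes of 0.5 and 96% of changes of 1 on the log2 scale were found. The real arrays of 1 slide were correlated, so these rates may not hold for the real comparison. The number of arrays limits the precision. No spot was saturated. Alternatives covered scaling, background, dim probes, probe averaging, outlier spots, the samples fitted, slide and replicate blocks, thresholds and left-out arrays.

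Genes were named by fixed rules: the 12 largest differences in each direction measured on all arrays with agreeing probes, the 4 largest bounds in each direction, up to 4 called members and those of opposite direction per list, the genes the study discusses, and the 3 largest changes from the lower pair in each direction. Other list members in the text fall outside these rules and were picked for their roles with their values in view. The members and lists were chosen with earlier results of these data known. List counts carry no test. One result of the comparison is not reported here.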

Additional observations from a re-analysis of the deposited data

Results flagged for a closer look

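Groups of 3 arrays are too small for a check of single outlying arrays, so what is listed here are differences between NaCl and sorbitol that changed from the pair of NaCl 100 mM and sorbitol 200 mM to the pair of NaCl 125 mM and sorbitol 250 mM. The change was called by limma at an adjusted p under 0.01 for 8853 of 21508 genes (41.2%). It was also at least 2-fold for 1179 of the 21508. Among 165 genes named in the text it was called for 112, of which 53 changed at least 2-fold, 30 in favour of NaCl and 23 in favour of sorbitol. Some of the named genes were picked for large differences or large changes, so these counts are not a result about the named genes. Values are changes of the log2 difference, positive where NaCl gained over sorbitol.

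Among the genes with the largest differences the change was 1.65 for ChlAKR, 4.83 for AT3G56480, 3.29 for BTS, 3.39 for COL5, 3.38 for MLO8, 3.99 for PAH2, 4.37 for AT4G21720 and 4.06 for KIN10. In the other direction it was -3.78 for PCC1, -1.65 for TIP2;3, -1.18 for PR5, -1.75 for BG3, -1.27 for AT5G59670, -1.12 for AT1G26410, -2.32 for AT1G13470 and -2.17 for ABCG40. Of the genes not well above background in one medium, CYP707A2 changed by 5.27, THI2.1 by 2.68 and AT4G08555 by 2.70. AT4G01390 changed by -1.89, PCR1 by -5.35, EXPA2 by -2.63 and AT3G53250 by -1.36. For all of these the level in that medium is only a bound.

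Besides BTS, given above, the iron genes named in the text with a change past 2-fold were NAS4 (1.11), F6'H1 (1.30), IRT1 (-1.18) and FRO2 (-1.63). Of the other ABA breakdown genes CYP707A1 gained 2.90 and CYP707A3 gained 1.79, while the change of CYP707A4 was not called (adjusted p 1.00). Auxin-related genes gained 2.07 for AUX1, 2.43 for AT4G38860, 2.90 for AT2G16580 and 1.75 for SAUR9. Transport genes changed by 1.06 for CLC-C and -1.05 for HAK5. Defence and oxidative stress genes changed by -2.65 for PDF1.2, -2.07 for PR2 and 1.96 for OXI1. Barrier, root and pigment genes changed by 1.48 for GPAT4, -1.09 for CER4, 1.01 for ASFT, -1.32 for CASP5 and 1.28 for PAP2. The root gene AIR1 changed by -3.51 and TAT3 by -3.37.

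Members of the families picked after their values were seen changed by -1.37 for HSFA2, 2.73 for AGP17, 2.70 for WRKY17, -2.21 for WRKY38, 1.73 for CYCA3;4, 2.64 for EXPA11, 1.52 for EXPA5 and 2.39 for PRR3.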

How the results depend on the processing

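The count of genes differing between NaCl 125 mM and sorbitol 250 mM stayed between 12389 and 16192 over all settings without a fold requirement. It was 14543 after 75th percentile scaling, 13834 after normexp background correction, 12389 with slide as a random block (4893 higher, 7496 lower) and 13864 to 14017 when any 1 array of the pair was left out, and 2427 when a 2-fold difference was also required. The count of genes whose difference changed from the lower pair was 8853 as reported, 5615 with slide as a random block (2333 in favour of NaCl, 3282 in favour of sorbitol), 1179 with a 2-fold change required and 7997 to 8836 with 1 array left out. Replicate numbers did not pair the samples (correlations of deviations 0.039, -0.006 and 0.022), and with the replicate number as a block the counts were 14953 and 9346.

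Among list medians, normexp background correction took iron from 1.67 to 0.94, SAUR genes from 0.73 to 0.36 and jasmonate and defence genes from 0.50 to 0.22. With 75th percentile scaling the shoot markers were at -0.34, ribosomal proteins at -0.07, aquaporins at -0.09 and oxidative stress genes at -0.11, with more members lower than higher in the first 3 lists and as many of each for oxidative stress. With the mean of all probes, 6 compatible solute genes were lower in place of 11.

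Over 211 genes selected by rule and their alternatives, 3041 values kept direction and call, 116 lost the call, 1 gained it and 7 changed sign. Those 7 were PIP2;6 (-0.0282), TGG1 (-0.0562) and SOS1 (0.0316) after 75th percentile scaling, SUS4 (0.41), AOC1 (0.53) and LHCB2.1 (0.42) as means of their probes, and AXR1 (0.00467) without NaCl 125 mM replicate 1, where leaving out any other array gave values down to -0.176. As means of probes BTS was at 3.29, AT1G54020 at 3.16, JAL23 at 3.1 and BG3 at -2.59. With slide as a random block NCED3 (adjusted p 0.071) and PR1 (adjusted p 0.10) were not called. Among called genes with several probes, 644 had probes of opposite sign. Slide and group cannot be told apart for sorbitol 250 mM. Dim genes, not well above background in one medium, have only bounds.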

Other observations

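The gene families below were picked by symbol after their values had been seen, so their counts are descriptions. Over all genes 26.7% were called higher and 41.4% lower. All 6 ammonium transporter genes tested were called higher on NaCl 125 mM than on sorbitol 250 mM. They ranged from 0.25 for AMT1;1 to 1.48 for AMT1;3 on the log2 scale, and the median slide-matched difference was 0.80. Of 10 CBF and DREB factors, which govern cold and dehydration genes, 6 were higher and 1 lower, with CBF2 at 2.36 and CBF1 at 1.73. Of 28 arabinogalactan proteins, glycoproteins of the cell surface, 14 were higher and 8 lower, with AGP17 at 3.19. Of 18 expansins of the A group 9 were higher and 7 lower, with EXPA11 at 3.65 and EXPA5 at 2.79 opposite to EXPA2.

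Heat shock factors, the regulators of heat shock proteins, were lower on NaCl in 13 of 17 cases and higher in 2. Their median was -0.28, and -0.20 when slide-matched, with HSFA2 at -1.55 and HSFA3 at 1.27. The slide-matched difference was 0.28 for HSFA2, of the other sign, and 0.32 for HSFA3. Cyclins were lower in 20 of 32 cases and higher in 6, with CYCA3;4 at 1.96. Of 59 WRKY factors 19 were higher and 24 lower, shares near the 26.7% and 41.4% over all genes, with WRKY17 at 2.91 and WRKY38 at -2.15.

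Of 14 circadian clock genes, which time expression over the day, 6 were higher on NaCl and 1 lower, with a median of 0.16. PRR3 was at 2.21 and CCA1 at 1.44, with slide-matched differences of 0.36 and 0.94, while the evening genes TOC1 (0.09) and GI (0.06) were not called. Harvest times were not used here, and the part of the clock genes in the differences was not tested.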
